A study of Mus musculus with 12 samples.

Results

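The genes described here encode core parts of the mTORC1 nutrient-sensing pathway and of the folliculin-Tfe3 branch that hangs from it: Mtor, Rptor, Rictor, Deptor, Tsc1, Tsc2, Rragd, Flcn, Tfe3 and Rps6kb1. They were chosen by name, as every probe set that the platform annotation assigns to 1 of these 10 symbols alone. That gave 28 of the 45101 probe sets on the array, belonging to 9 of the 10 genes. Rps6kb1, the gene of the S6 kinase S6K1, had no probe set under that rule and was not analysed here. The arrays compare TBV2 mouse embryonic stem cells, a wild-type line of strain 129/SvP, grown for 5 days with 500 µM L-proline (called PiCs in the labels) with the same cells grown without it (control ESCs). Both groups were seeded sparsely on gelatin without feeder cells, in medium that held leukemia inhibitory factor (LIF) and lacked non-essential amino acids. Each group has 2 biological replicates of 3 arrays, 12 arrays in all. The 3 arrays of a replicate were averaged, because the labels do not say what their letters stand for, and they do not say whether the replicates came from separate cultures, so a p-value measures only the spread between these samples. All cells are of a single line.

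mTORC1 is a protein kinase complex that promotes protein synthesis and growth when amino acids and growth factors are plentiful. Amino acids act through the Rag GTPases, pairs of RagA or RagB with RagC or RagD that bring mTORC1 to the lysosome, while growth factors act through the TSC complex, which restrains the activator Rheb. Folliculin (Flcn), with its partner Fnip1 or Fnip2, acts on RagC and RagD, and through them mTORC1 keeps the transcription factors Tfeb, Tfe3 and Mitf in the cytoplasm. In mouse embryonic stem cells folliculin is known for driving exit from the naive state, since nuclear Tfe3 sustains Esrrb. These controls work largely through phosphorylation and location of proteins, which transcript arrays do not measure.

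Of the 9 genes measured, 0 rose and 0 fell after proline at an adjusted p of 0.05 in limma, against 4.36% of all 18193 genes called, 3.03% higher and 1.34% lower. At an unadjusted p under 0.05 the count was 1, Rragd, against 22.1% of all genes. Rragd, which encodes RagD, measured 2.41-fold higher with proline and missed the threshold (adjusted p = 0.0534). The other 8 genes measured between -0.32 and 0.46 on the log2 scale. The median of the 9 was -0.09, beside -0.03 for all genes. In RNA from whole cultures, fewer cells of a type and less RNA per cell cannot be told apart.

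**Figure D1:**
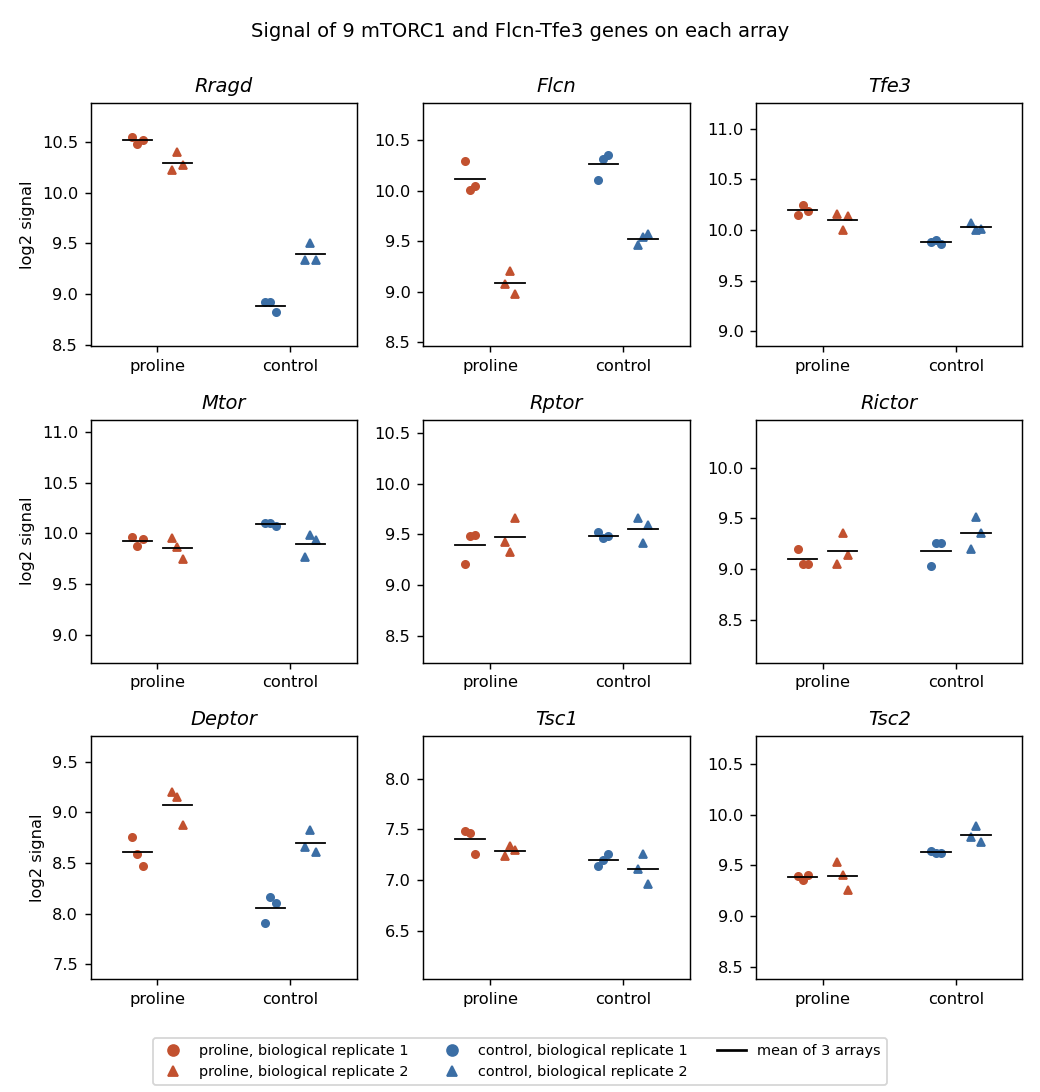
Log2 signal of the brightest probe set of each of the 9 genes on each array, proline left of control. Circles are biological replicate 1, triangles replicate 2, black bars the mean of 3 arrays, and every panel spans the same height. Rragd and Tsc2 are the genes whose 6 proline arrays do not overlap the 6 control arrays, and Flcn is low in replicate 2 of both groups.

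Arrays of different groups correlated at r = 0.962 to 0.981 across probe sets, those of the other replicate of the same group at 0.985 to 0.989. The 3 arrays of 1 replicate varied with a pooled SD of 0.054 to 0.14 on the log2 scale across the 9 genes. All 6 general pluripotency markers and all 9 naive markers lay above the 40th percentile of signal (5.36), a level used here to call a signal dim. Of the 9 naive markers 0 rose and 5 fell, against 1.34% of all genes lower. All 9 were lower at an unadjusted p under 0.05, against 22.1% of all genes in either direction. Their median log2 fold change was -1.83. Of 6 primed markers 3 rose and 0 fell, against 3.03% of all genes higher. All 6 were higher at an unadjusted p under 0.05, against 22.1% of all genes in either direction, and the median was 2.27. The part of these marker shifts in the Mitf, Tfeb and Ulk1 values given further on was not tested. Of fibroblast markers 5 of 8 and of extraembryonic endoderm markers 3 of 8 lay above the 40th percentile of signal. In limma 0 of either list rose or fell, against 4.36% of all genes. At an unadjusted p under 0.05 there was 1 of each list, against 22.1% of all genes, both higher with proline. In log2 fold change the endoderm marker Dab2 measured 1.68 (adjusted p = 0.0545) and the fibroblast marker Dcn 0.77 (adjusted p = 0.0769). Of the 8 fibroblast markers 3 measured above 0 and 5 below, and of the 8 endoderm markers 6 and 2.

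The promoters of Rragd and its paralog Rragc are shown, because Rragd gave the largest difference of the 9 genes and Rragc measured below 0. The sequences are RefSeq's 250 bases upstream of the gene start, GRCm38.p6, with the E-box CACGTG in capitals. CACGTG is the core of the element that Tfeb and Tfe3 bind, and it reads the same on both strands.
Rragd, chr4:32982748-32982997, plus strand: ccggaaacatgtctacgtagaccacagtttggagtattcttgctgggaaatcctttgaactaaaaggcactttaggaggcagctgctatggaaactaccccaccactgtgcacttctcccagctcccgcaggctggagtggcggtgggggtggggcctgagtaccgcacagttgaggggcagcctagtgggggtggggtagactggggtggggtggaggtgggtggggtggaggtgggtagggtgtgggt
Rragc, chr4:123917183-123917432, plus strand: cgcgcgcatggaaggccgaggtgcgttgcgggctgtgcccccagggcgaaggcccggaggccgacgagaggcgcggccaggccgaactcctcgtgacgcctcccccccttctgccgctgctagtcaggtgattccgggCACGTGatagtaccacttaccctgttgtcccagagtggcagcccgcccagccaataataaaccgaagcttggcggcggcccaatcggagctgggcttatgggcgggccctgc
The Rragc window holds 1 CACGTG, which begins at position -112 from the gene start, and the Rragd window holds 0. Of all 32851 windows of this length, 6.02% hold it. Windows were found for 9 of the 10 genes, all but Deptor, and 0 of their 10 windows hold it. A match is a string of letters and not a shown binding site. Sites outside these 250 bases or spelled otherwise were not searched for, so a window without a match is not shown to lack binding.

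Among the Rag GTPases, Rragd read 10.52 and 10.30 in proline replicates 1 and 2, against 8.89 and 9.39 in control replicates 1 and 2 (log2 signal). The lowest proline array, at 10.22, lay above the highest control array, at 9.50. The log2 fold change was 1.27 ± 0.21 (moderated SE, n = 2 biological replicates per group), with a 95% confidence interval from 0.71 to 1.83. The 4 pairings of a proline with a control replicate gave differences from 0.90 to 1.64. The control replicates themselves lay 0.51 apart. The other probe sets of Rragd, 1431164_at and 1440555_at, measured 0.67 and 0.21 (log2 fold change) against 1.27 for 1434909_at. Both were dim, so their folds are not exact, and on both the arrays of the groups overlap. Rragd passed under 4 other settings, each of which called a larger share of genes than the 4.36% of the main fit. In limma it had an adjusted p of 0.0405 when dim genes were left out (7.13% of the 12762 genes left were called). With an intensity trend it had 0.0420 (5.15% called) and with the replicate number as a block 0.0311 (11.2%). With the 12 arrays in a random block it had 1.93e-05 (21.9% called). It did not pass with median centring (adjusted p = 0.0531), with quantile normalization (0.0667) or with every probe set by itself (0.0910), and with the median over its probe sets the log2 fold change was 0.67 (adjusted p = 0.392). Leaving out single replicates gave log2 fold changes from 1.02 to 1.52.

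Rragc, the gene of RagC, read 10.28 and 9.82 in proline replicates, against 10.37 and 10.17 in control replicates. Its log2 fold change was -0.22 ± 0.20 (adjusted p = 0.617). The difference between the changes of Rragd and Rragc was not tested. Of the 9 measured genes for Rag GTPases, the Ragulator scaffold and the lysosomal arginine sensor Slc38a9, 0 passed, against 4.36% of all genes. Slc38a9 measured 0.41 ± 0.14 (adjusted p = 0.182), and its 7 probe sets ran from -0.28 to 0.64 in log2 fold change. The median of the list was -0.12.

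The kinase Mtor (1417592_at), the catalytic subunit of both mTOR complexes, read 9.93 and 9.86 in proline replicates, against 10.09 and 9.90 in control replicates. The arrays of the groups overlap. The log2 fold change was -0.10 ± 0.13, with a 95% interval from -0.44 to 0.24 (adjusted p = 0.742). All 3 Mtor probe sets measured below 0, the lowest at -0.50 on a dim probe set, 1446185_at, whose unadjusted p in limma was 0.0112 and adjusted p over all probe sets 0.146.

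Rptor (1434619_at) encodes Raptor, the subunit that recruits substrates to mTORC1. It read 9.40 and 9.47 with proline and 9.49 and 9.56 without, a log2 fold change of -0.09 ± 0.11 (95% interval -0.39 to 0.21). Its 3 probe sets went both ways, from -0.41 to 0.30. Rictor (1435698_at), the defining subunit of mTORC2, read 9.10 and 9.18 with proline and 9.18 and 9.36 without, a log2 fold change of -0.13 ± 0.13 (95% interval -0.46 to 0.20). All 5 Rictor probe sets measured below 0, from -0.35 to -0.00025. The lowest, 1441753_at, was not dim, and all its proline arrays lay below all its control arrays. Its unadjusted p in limma was 0.0274 and its adjusted p over all probe sets 0.213. For the 3 kinase complex genes the intervals exclude a 2-fold difference in either direction, on the probe set used.

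Deptor (1451348_at), an inhibitor that binds mTOR in both complexes, read 8.61 and 9.08 in proline replicates, against 8.06 and 8.70 in control replicates. Control replicate 2 thus lay above proline replicate 1. The log2 fold change was 0.46 ± 0.28, and its 95% interval ran from -0.29 to 1.21 (adjusted p = 0.442). Replicate 2 was higher than replicate 1 by 0.47 with proline and by 0.64 in controls, as large as the difference between the groups. Of 6 Deptor probe sets 5 measured above 0, up to 0.67, and the 1 below 0 (-0.04) was dim. On 1453571_at, which was not dim, all proline arrays lay above all control arrays. Its log2 fold change was 0.28 (adjusted p in limma over all probe sets 0.340). On the others above 0 the arrays of the groups overlap. For 1451348_at the log2 fold change was 0.14 without control replicate 1 and 0.78 without control replicate 2. Beta-actin 5' minus 3' signal, a measure of RNA integrity, was higher in replicate 2 by 0.42 with proline and by 0.40 in controls. It also differed between the groups, at -0.66 and -0.24 in proline replicates 1 and 2, against -0.90 and -0.50 in control replicates 1 and 2 (log2). Its part in the Deptor values, and in the other differences between the groups, was not tested.

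In the whole list of 11 genes for the mTOR complexes 0 passed, against 4.36% of all genes, and the median was -0.05. The remaining subunits and assembly factors likewise held 0 genes past the threshold. The largest difference among them was in Prr5l, which encodes a Rictor-binding protein. It read 8.01 and 8.82 in proline replicates, against 7.14 and 7.19 in control replicates, a log2 fold change of 1.25 ± 0.29 (adjusted p = 0.0945). Its 3 probe sets measured between 0.77 and 1.83, the lowest on a dim probe set, 1447914_x_at, whose fold is not exact. Akt1s1, the gene of the mTORC1 inhibitor PRAS40, measured 0.24 ± 0.13 (adjusted p = 0.370).

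**Figure D2:**
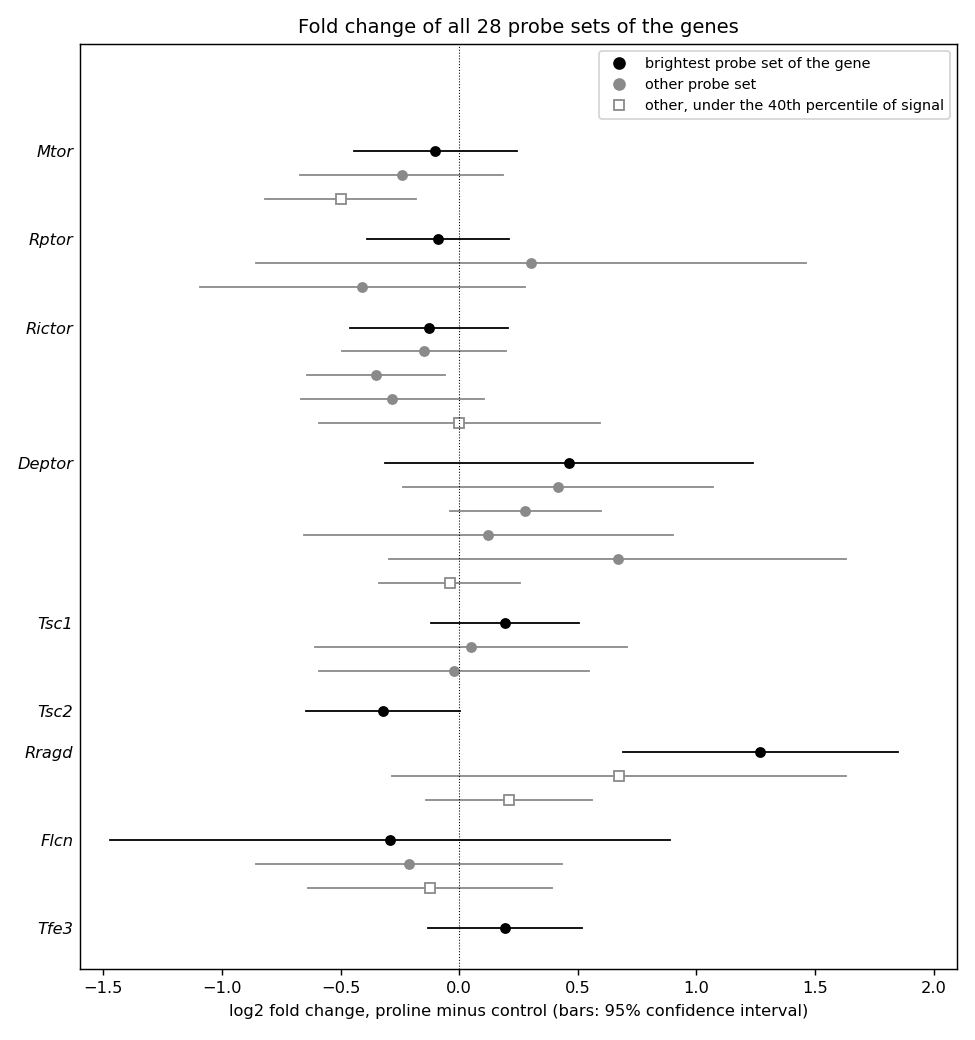
Log2 fold change (proline minus control) of each of the 28 probe sets, with the 95% confidence interval of the fit over all probe sets. Black marks the brightest probe set of each gene, and open squares are dim probe sets. The intervals of 3 probe sets exclude 0, 1 each of Mtor, Rictor and Rragd.

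Tested by itself, 0 of the 28 probe sets passed, against 0.0998% of all probe sets. At an unadjusted p under 0.05 there were 3 of 28, against 17.6% of all. Of the 28, 12 measured above 0 and 16 below, and 6 were dim.

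Neither gene of the TSC complex passed the threshold. Tsc1 (1455252_at), which encodes hamartin, read 7.40 and 7.29 with proline and 7.19 and 7.11 without, a log2 fold change of 0.19 ± 0.12 (95% interval -0.12 to 0.51, adjusted p = 0.442). Its other 2 probe sets measured 0.05 and -0.02. Tsc2 (1452105_a_at) encodes tuberin, the subunit that inactivates Rheb, and read 9.39 and 9.40 in proline replicates, against 9.63 and 9.80 in control replicates. The highest proline array of Tsc2, at 9.54, lay below the lowest control array, at 9.62. Its log2 fold change was -0.32 ± 0.12 (95% interval -0.64 to 0.0037, adjusted p = 0.230) on a single probe set. On the brightest probe set of each gene, 2 of the 9 had arrays that did not overlap between the groups, against 24.6% of all genes. These were Rragd, above, and Tsc2, below.

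Rheb, the GTPase that activates mTORC1, measured -0.07 ± 0.11 (adjusted p = 0.786). In the list of 13 genes for the TSC complex, Rheb and their upstream regulators 0 rose and 0 fell, against 4.36% of all genes called. The median of the list was -0.03. The smallest p in that list was that of Pdpk1, the kinase that activates Akt (-0.38 ± 0.13, adjusted p = 0.199), followed by Akt1 (0.79 ± 0.30, adjusted p = 0.230). The 4 probe sets of Akt1 ran from 0.07 to 1.12 in log2 fold change. Ddit4, a stress-induced inhibitor of mTORC1, read 10.83 and 11.64 with proline and 11.36 and 10.00 without. Its control replicates lay 1.37 apart, more than its log2 fold change of 0.55 ± 0.53.

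Flcn (probe set 1438167_x_at) read 10.11 and 9.09 in proline replicates 1 and 2, against 10.26 and 9.52 in control replicates 1 and 2. Replicate 2 was the lower one in both groups, by 1.03 with proline and by 0.73 in controls. The log2 fold change between the groups was -0.29 ± 0.43, with a 95% interval from -1.43 to 0.84 (adjusted p = 0.780). All 3 Flcn probe sets measured below 0, between -0.29 and -0.12, and all 3 were lower in replicate 2 of both groups. Without proline replicate 2 the value was 0.22 and without control replicate 1 it was 0.07.

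The folliculin partners showed the same order of replicates. Fnip2 read 10.20 and 9.06 with proline and 9.86 and 9.41 without, a log2 fold change of 0.0016 ± 0.42 (adjusted p = 0.999). Fnip1 read 9.04 and 8.56 with proline and 8.88 and 8.64 without, a log2 fold change of 0.04 ± 0.21 (adjusted p = 0.950). The signs of Fnip1 and Fnip2 turned under 3 other settings each. The 18S ribosomal RNA probe sets were also lower in replicate 2, by 1.39 with proline and by 0.70 in controls, and poly-A spike-ins by 0.46 and 0.35. Both were also lower with proline. The 18S probe sets read 9.74 and 8.35 in proline replicates 1 and 2, against 10.74 and 10.04 in control replicates 1 and 2, and the spike-ins 8.02 and 7.55 with proline, against 8.35 and 8.0 in controls (mean log2 signal). Their part in the Flcn, Fnip1 and Fnip2 values, and in the other differences between the groups, was not tested.

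Tfe3 (1434318_a_at) read 10.20 and 10.10 in proline replicates, against 9.88 and 10.03 in control replicates, on its single probe set. The log2 fold change was 0.19 ± 0.12 (95% interval -0.13 to 0.52, adjusted p = 0.464). The arrays of the groups overlap between 10.00 and 10.07.

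Mitf, the melanocyte master regulator that gives the family its name, read 6.81 and 7.03 in proline replicates, against 9.41 and 8.67 in control replicates. All 6 proline arrays lay below all 6 control arrays. Mitf fell, with a log2 fold change of -2.12 ± 0.27 (adjusted p = 0.0371), a 4.35-fold lower signal. Its other probe set, 1422025_at, measured -0.92 but was dim, so its fold is not exact. Leaving out single replicates gave log2 fold changes from -2.49 to -1.75. With every replicate kept, the call was lost with the median over its probe sets (adjusted p = 0.0544) and with every probe set tested by itself (0.0677). Tfeb, the regulator of lysosome biogenesis, read 8.32 and 8.44 with proline and 9.40 and 9.05 without, a log2 fold change of -0.85 ± 0.16 that did not pass (adjusted p = 0.0689). Tfec, the remaining member of the family, was dim and measured -0.0089 (adjusted p = 0.986). Whether Mitf, Tfeb and Tfe3 differ from each other in their change was not tested. In the list of 8 folliculin and MiT/TFE genes, 0 rose, 1 fell and 7 did not pass, against 1.34% of all genes lower, and the median was -0.0036.

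Esrrb, the naive pluripotency factor that nuclear Tfe3 is known to sustain, fell. It read 10.38 and 10.53 in proline replicates, against 11.87 and 12.01 in control replicates, a log2 fold change of -1.49 ± 0.13 (adjusted p = 0.0246). All 3 of its probe sets measured below -1, at -1.49, -1.12 and -1.09. On the last, 1422986_at, the groups overlapped, at 6.14 and 8.02 in proline replicates and 7.38 and 8.96 in control replicates. The fall of Esrrb is among 5 in the 9 naive markers. With every replicate kept, the Esrrb call was lost with every probe set tested by itself (adjusted p = 0.0520). Leaving out single replicates gave log2 fold changes from -1.57 to -1.42.

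**Figure D3:**
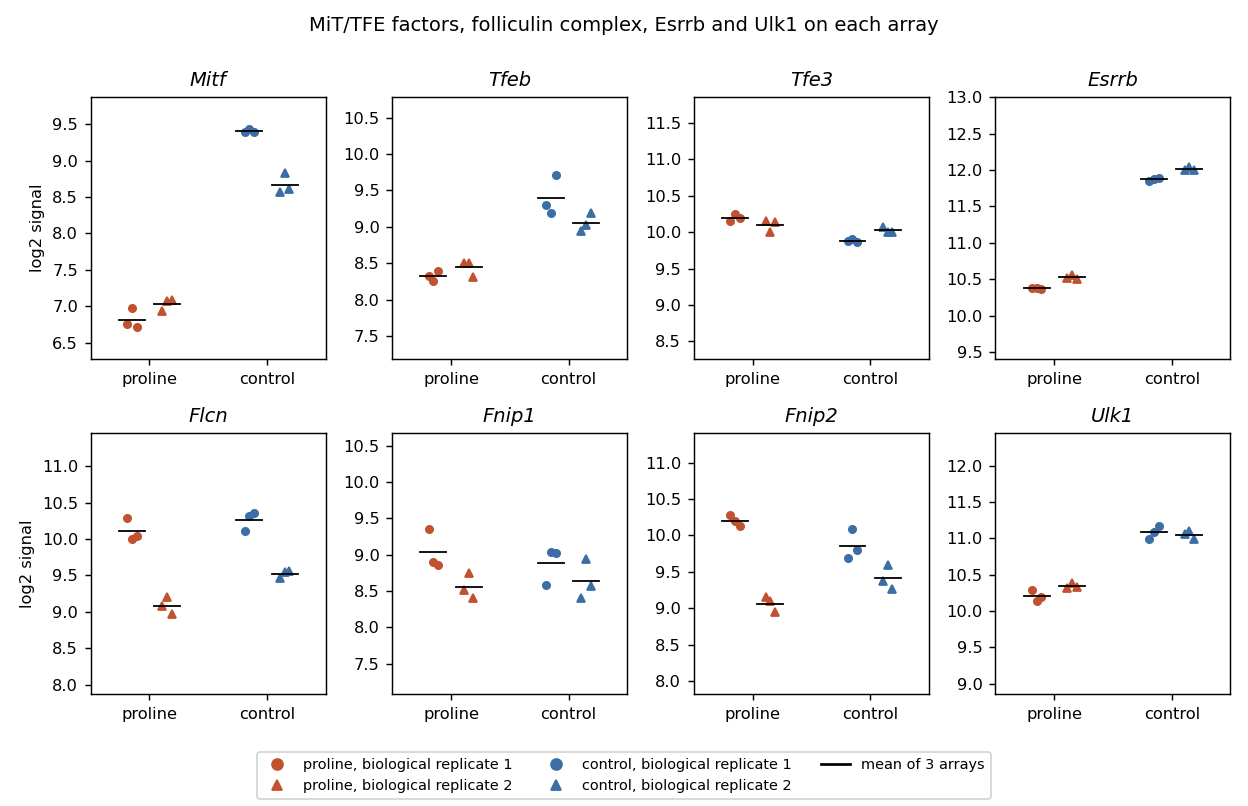
Log2 signal on each array, proline left of control, for the MiT/TFE factors, Esrrb, the folliculin complex and Ulk1, with symbols as in the plot of the 9 genes. Mitf, Tfeb, Esrrb and Ulk1 have no overlap between the groups, while Flcn and Fnip2 split by replicate number.

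Among mTORC1 substrates and effectors, 13 genes were measured, of which 0 rose, 1 fell and 12 did not pass, against 1.34% of all genes lower. The fall was in Ulk1, the kinase that starts autophagy and that mTORC1 inhibits by phosphorylation. Ulk1 read 10.21 and 10.34 in proline replicates, against 11.08 and 11.05 in control replicates, a log2 fold change of -0.79 ± 0.12 (adjusted p = 0.0442). Its 6 proline arrays lay below its 6 control arrays. Its other probe set, 1416504_at, measured -0.58, and there the groups overlapped, at 8.35 and 9.13 in proline replicates and 9.12 and 9.53 in control replicates. With every replicate kept, the call of Ulk1 was lost with the median over its probe sets (adjusted p = 0.157) and with every probe set by itself (0.0748). Leaving out single replicates gave log2 fold changes from -0.86 to -0.72. The median of the effector list was -0.11. Eif4ebp1, the gene of the translation repressor 4E-BP1, measured -0.18 ± 0.19 (adjusted p = 0.673).

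GATOR1, GATOR2, KICSTOR and the cytosolic sensors relay amino acid supply to the Rag GTPases. Of their 17 measured genes 0 rose and 0 fell in limma, against 4.36% of all genes called. At an unadjusted p under 0.05 there were 4 of 17, all higher, against 22.1% of all genes, and the median was 0.21. Castor2, a paralog of the arginine sensor Castor1, read 7.84 and 8.43 in proline replicates, against 6.50 and 6.96 in control replicates. Its log2 fold change was 1.41 ± 0.27 (adjusted p = 0.0676), and its 4 probe sets, of which 1422151_at was dim, ran from 0.31 to 1.41. Sesn3, of the sestrin family, measured 0.95 ± 0.24 (adjusted p = 0.116). The leucine sensor gene Sesn2 measured -0.28 ± 0.20 (adjusted p = 0.510) and Castor1 0.21 ± 0.15 (adjusted p = 0.507).

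Lysosomal and autophagy genes of the Tfeb and Tfe3 network, 28 measured, held 0 genes past the threshold in limma, against 4.36% of all genes, and 3 at an unadjusted p under 0.05, all higher, against 22.1% of all genes. Their median was -0.06, with 12 above 0 and 16 below. Rragd, itself a known target of these factors, had the smallest p. The sialidase gene Neu1 came next, at 8.31 and 8.20 in proline replicates, against 7.61 and 7.30 in control replicates, a log2 fold change of 0.80 ± 0.15 (adjusted p = 0.0691). The other probe sets of Neu1, both dim, measured 0.44 and 0.18.

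**Figure D4:**
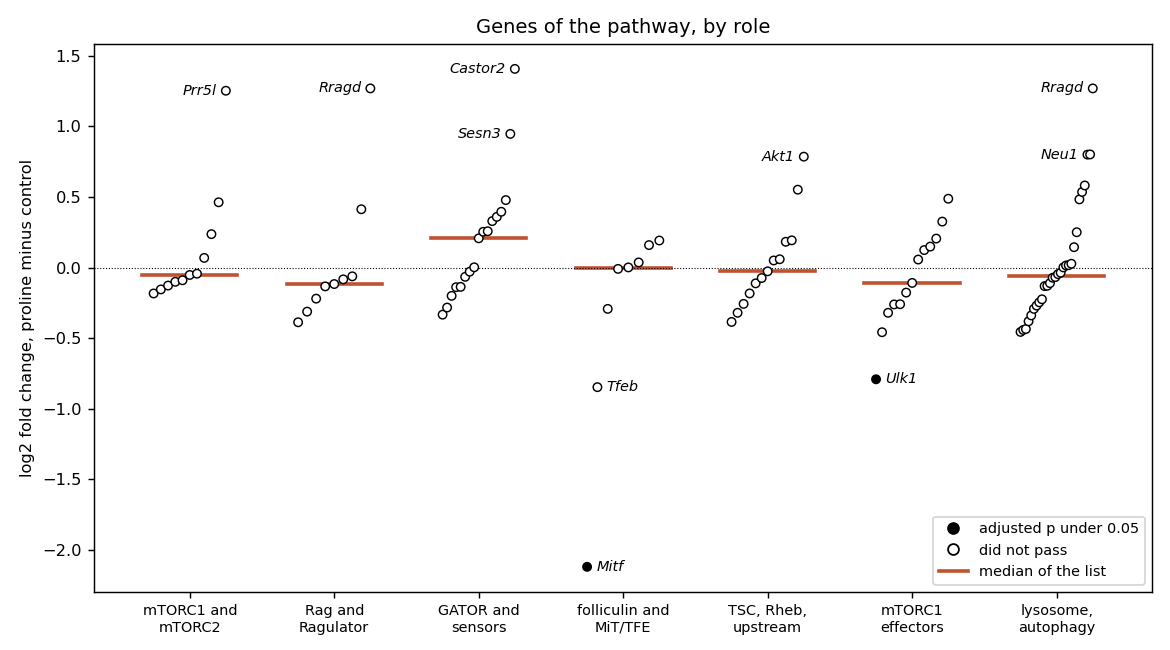
Log2 fold change (proline minus control) of every measured gene in 7 lists of the pathway, sorted within each list, with filled points for adjusted p under 0.05 and a bar at each list's median. Mitf and Ulk1 are the filled points, and list medians lie between -0.12 and 0.21.

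Over all 7 lists, 96 genes were measured of 105 listed. Of these 0 rose, 2 fell and 94 did not pass, against 4.36% called among all genes. At an unadjusted p under 0.05 there were 10 higher and 6 lower, 16 of 96, against 22.1% of all genes.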

How the data were processed

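The submitters' processing notes name MAS5 and RMA, and not which of them made the table. The deposited values are log2 signals that the authors had normalized across arrays. They ran from 2.10 to 14.8, with array medians of 5.99 to 6.03. Detection calls were not used here, so dim signal is not separated from background.

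The platform annotation gave 34945 of 45101 probe sets exactly 1 symbol. RefSeq's table (GRCm38.p6) changed 0 symbols. For each of 18193 genes the probe set of highest mean signal was used, without a filter. The 3 arrays of a biological replicate were averaged, and 2 proline means were compared with 2 control means in limma 3.58.1 (R 4.3.3; lmFit, eBayes, two-sided, no covariate), adjusted by Benjamini-Hochberg over all genes, with 2 residual degrees of freedom and 2.60 from the prior. With 2 values a group, exact permutation p-values start at 0.333. For arrays, replicate number limits the precision. The procedure was tested on simulated data.

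The genes and lists were chosen with earlier results of these data known. Named genes were the members, up to 6 passing genes of each list (or the 2 with the smallest p where none passed) and a fixed set of 12. Alternatives were quantile normalization, median centring, a dim filter, other uses of probe sets and arrays, a replicate block, an intensity trend and leaving out each replicate. Plots used matplotlib 3.10.9.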

Additional observations from a re-analysis of the deposited data

How the results depend on the processing

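The count of genes past the threshold, 794, was 354 with the median over probe sets, 45 when every probe set was tested by itself, 3987 with the 12 arrays in a random block, 2039 with the replicate number as a block, and 0 when any of the 4 replicates was left out. The count among the 9 genes, 0, was 1 (Rragd) without dim genes, with the random block, with the replicate block and with the intensity trend. All 4 of these settings called a larger share of genes than the main fit. The totals were 910 of 12762 without dim genes and 937 of 18193 with the intensity trend. The count over the pathway lists, 2, was 4 without dim genes, 18 with the random block, 10 with the replicate block, and 0 with the median over probe sets, with every probe set by itself and when any replicate was left out. The replicate numbers are not said to pair the samples, and replicate 2 minus replicate 1 correlated between the groups at r = 0.338 across genes. With the replicate block Flcn was -0.29 ± 0.14 (SE, adjusted p = 0.265). Signs turned under these settings only for genes that did not pass. Rptor was 0.030 with the median over probe sets, and Fnip1 was -0.016 and Fnip2 -0.026 with quantile normalization. Leaving out single replicates gave -0.80 to 0.22 for Flcn, -0.20 to 0.28 for Fnip1, -0.57 to 0.57 for Fnip2, -0.45 to 0.012 for Rragc, -0.13 to 1.23 for Ddit4 and -0.41 to 0.052 for Eif4ebp1. The causes were not tested.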

Other observations

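Of the 28 measured lysosomal and autophagy genes of the Tfeb and Tfe3 network, 18 were lower in replicate 2 than in replicate 1 of both groups and 4 were higher in both. Among all 18193 genes 33.0% were lower in replicate 2 of both groups and 24.9% higher. Of the 9 mTORC1 and Flcn-Tfe3 genes, 3 were lower in replicate 2 of both groups and 4 higher. This count was chosen after the values had been seen, and no test was made of it.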
